A study of Mus musculus with 38 samples.

Results

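The comparison described here set mouse bone marrow-derived macrophages (BMDM) held in hypoxia with the vehicle DMSO against the same kind of cells held in normoxia with DMSO. It rests on 4 of the 38 libraries of the series, 2 per condition, taken by their labels: normoxia 1, normoxia 2, hypoxia 1 and hypoxia 2. BMDM are primary macrophages grown from marrow progenitors; these were wild type (WT), with no strain or age in the labels. The macrophages were plated in DMEM with GlutaMAX and 10% FBS. After 24 h they were moved to normoxia (21% O2) or hypoxia (below 0.1% O2) for 16 h, and DMSO was added in a volume equal to that of the treatment with 10 nM panobinostat, a histone deacetylase inhibitor. Macrophages of the same experiment that received panobinostat in hypoxia (2 libraries) entered the model fit to help estimate the spread between libraries. The hypoxia effect was also set beside that of BMDM grown alone without vehicle, from another experiment of the series. A further comparison was with BV2 cells, an immortalised mouse microglial line, given DMSO in 2% FBS. Each of these had 2 libraries per condition. All cells were fixed with 3% glyoxal before RNA isolation. Nothing in the labels says that libraries of a group came from separate animals or cultures, so p-values measure only the spread between these libraries, which may be technical.

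Cells sense oxygen through the prolyl hydroxylases encoded by the Egln genes. These enzymes use oxygen to mark the alpha subunits of hypoxia-inducible factor (HIF) for destruction through the VHL ubiquitin ligase. When oxygen is scarce the alpha subunits persist, pair with ARNT and bind short DNA elements near genes for glucose uptake, glycolysis, mitophagy and vessel growth. Oxygen is also the final electron acceptor when disulfide bonds are made in the endoplasmic reticulum (ER). Unfolded protein there is sensed by the IRE1, ATF6 and PERK pathways, which induce chaperones, the degradation machinery and the transcription factor CHOP (Ddit3).

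The 4 libraries held 14414600, 15869200, 15748900 and 9634700 counts (normoxia 1, normoxia 2, hypoxia 1, hypoxia 2; rounded to 6 digits), so that 3 counts correspond to 0.189 to 0.311 in counts-per-million units (CPM, scaled to library size); such floors cover counting error only. Before the results, 2 features of these libraries have to be stated. First, they contained transcripts of stromal cells. The summed level of 22 fibroblast markers was 38037 and 35610 CPM in normoxia and 7889 and 27956 CPM in hypoxia. Of the 22, 20 or 21 lay above 1 CPM in each library, and Lum was at 0 in normoxia 2 and hypoxia 2. In the untreated BMDM of the other experiment the same sum was 256 and 306 CPM in normoxia and 227 and 435 CPM in hypoxia. The 7 smooth muscle and pericyte markers, Acta2 leading, summed to 3380 and 3228 CPM in normoxia and 351 and 1457 CPM in hypoxia. The 10 macrophage markers were all detected, with sums of 27986 and 18474 CPM in normoxia and 3143 and 10599 CPM in hypoxia. Sums for other cell types were smaller. Osteoclast markers, Mmp9 leading in the libraries numbered 1, summed to 1088 and 201 CPM in normoxia and 171 and 83.7 CPM in hypoxia. Neutrophil and progenitor markers summed to 136 and 19.9 CPM in normoxia and 5.78 and 10.48 CPM in hypoxia; Csf3r made up most of each sum, and Ly6g, Ngp and Retnlg were at 0 in all 4 libraries. Osteoblast markers summed to 170.2 and 57.5 CPM in normoxia and 17.9 and 41.1 CPM in hypoxia. These 3 sums were lower in both hypoxic libraries and highest in normoxia 1. Glial markers, nearly all Nes, summed to 19.9 to 83.2 CPM, with Olig1, Olig2, Sox2 and Sox10 at 0. Adipocyte, mast cell and dendritic cell markers summed to 2.14 to 23.6 CPM, and B cell, T and NK cell and erythroid markers to under 3 CPM in each library. Endothelial markers are given beside Esam. Second, hypoxia 1 stood apart. On the first principal component, which held 70.0% of the variance over the 4 libraries, it scored 114.9 against 25.1 for hypoxia 2, -59.4 for normoxia 1 and -80.6 for normoxia 2. It also had the lowest macrophage and stromal sums. The replicates of a condition differed by more than sampling noise (2250 genes apart by over 2-fold in normoxia, 3249 in hypoxia), so none was counted as a repeat of another. In bulk RNA, fewer cells of a type and less RNA per cell cannot be told apart, and the part of these markers in the results below was not tested.

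**Figure D1:**
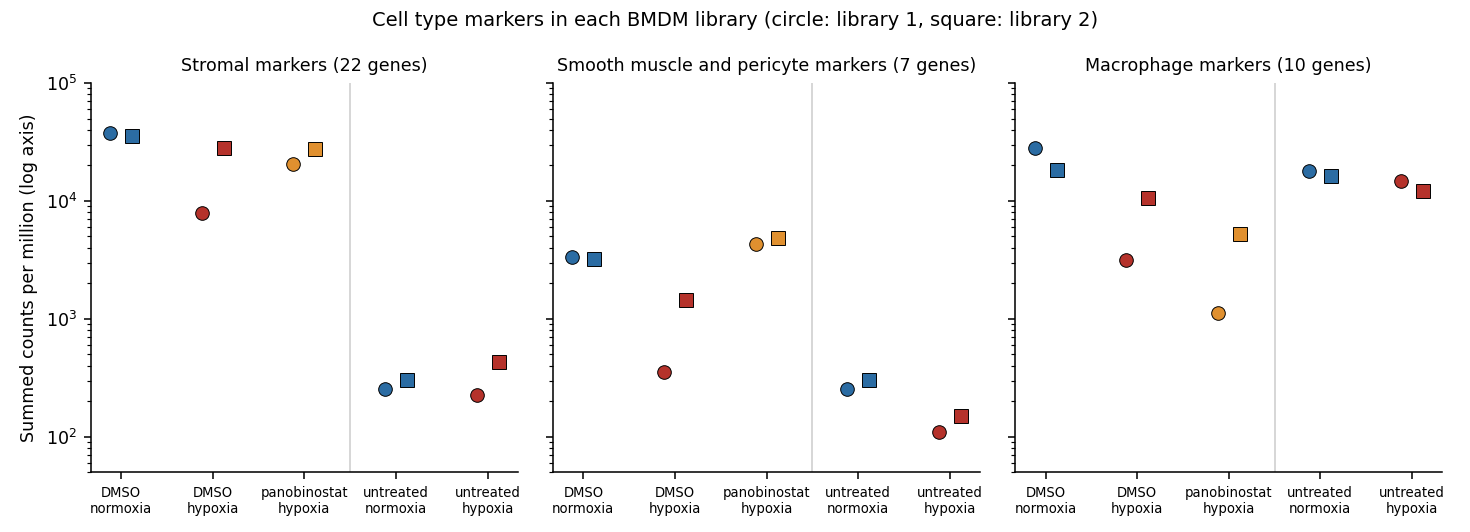
Summed level in CPM of 22 stromal, 7 smooth muscle and pericyte, and 10 macrophage marker genes in each BMDM library, on a log axis. Each point is 1 library (circle library 1, square library 2); in the DMSO groups stromal sums run from 7889 to 38037 CPM, against 227 to 435 CPM in the untreated BMDM to the right of the line.

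Without a term for replicate number, edgeR's quasi-likelihood test found 72 of 14914 genes past an adjusted p of 0.05 (called below; 0.483% of the genes tested). Of these, 70 were higher (0.469%) and 2 lower (0.0134%) in hypoxia, and 3786 genes had an unadjusted p under 0.05. With the replicate number as a block, so that library 1 is set against library 1 and library 2 against library 2, 2127 genes were called (14.3%), 1172 higher (7.86%) and 955 lower (6.40%); all 72 were among them. The count of each list with the block is to be read against these shares. The labels do not say that equal numbers mark a shared culture or day, so both fits are given throughout, and "with the block only" marks a gene called in the second alone. The fit holds the 2 panobinostat libraries; on the 4 DMSO libraries alone, 0 genes were called without the block by edgeR (3154 at an unadjusted p under 0.05) and 320 with it, while DESeq2 on all 6 called 2078 without it. Single libraries also decided these totals. Without the block, 0 genes were called when normoxia 1, normoxia 2 or hypoxia 1 was left out and 611 when hypoxia 2 was. With the block, the counts were 1317, 3280, 196 and 1198 without normoxia 1, normoxia 2, hypoxia 1 and hypoxia 2. Statements "without hypoxia 1" below come from the fit with the block on the remaining libraries, where the lone hypoxic DMSO library is taken to vary like the others. Far fewer genes of any kind were called in that fit, and the loss was steepest for falls. A list that lost its calls there is therefore not set apart from other genes. The shares of all genes given below belong to the full fits, not to that one. The hypoxic libraries did not overlap the normoxic ones for 4453 genes on the higher side (29.9%) and 4331 on the lower (29.0%), and the median log2 fold change of all genes was -0.01. With the marker genes of other cell types removed from the table, 76 genes were called without the block and 2172 with it. All other transcripts of those cells stayed in, so these counts cannot show how far stromal RNA matters.

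**Figure D2:**
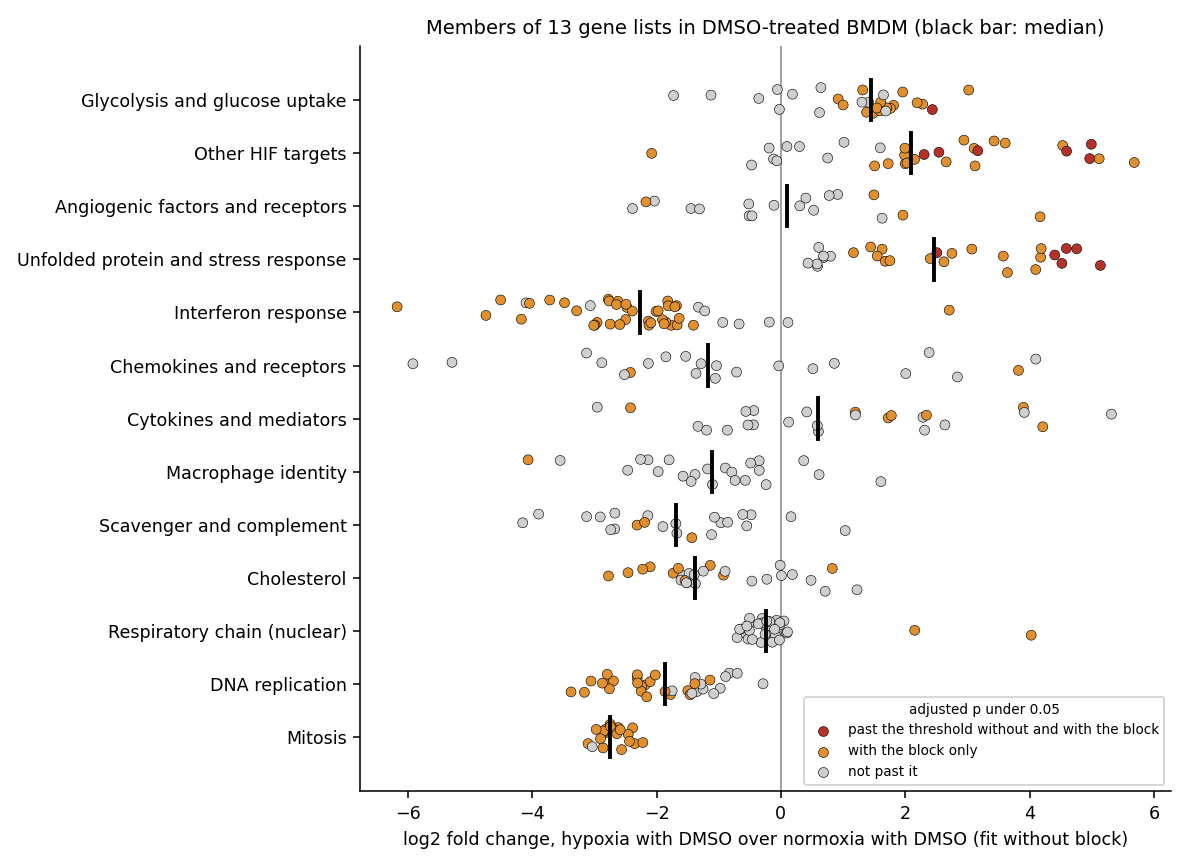
Log2 fold change (hypoxia over normoxia, DMSO-treated BMDM, fit without the block) of the members of 13 gene lists. Each point is a gene, coloured by whether its adjusted p was under 0.05 in both fits, with the block only or in neither. The black bar is the list's median: 2.45 for the unfolded protein and stress response, 2.09 for other HIF targets, -2.26 for the interferon response and -2.74 for mitosis.

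HIF binds short core elements, of which the form ACGTG was searched on either strand. Other forms of the element were neither counted nor marked. Promoter windows of 300 bases (250 before to 50 after the gene's start, RefSeq on GRCm38.p6) were found for 10986 of the 14914 genes tested. Of these, 25.5% held ACGTG or its reverse complement CACGT, against 19.6% of all 32851 windows of the table. The share was 40.7% of the 54 genes with a window that rose without the block, 40.8% of 892 that rose with it, and 17.2% of 756 that fell with it. By list it was 62.5% of 24 other HIF targets, 46.4% of 28 glycolysis genes, 33.3% of 27 genes of the unfolded protein response, 8.3% of 12 angiogenic genes and 5.9% of 34 interferon genes. A match is a run of letters and says nothing of binding, nor does its absence. The 200 bases before the start are printed, with the match in capitals, to show this form in genes described below. Only members of the glycolysis, other HIF target and angiogenic lists that had a window were considered for printing. Of the 5 such genes that rose in both fits, Ero1l and Mxi1 had a match in these 200 bases. Ndrg1 and Bnip3l had no window, so their promoters were not searched. Ankrd37, Bnip3, Fam162a and Slc2a1 rose with the block only and were added after their values were seen. The matches lie 63 to 59 bases before the RefSeq start in Ero1l (chr14:45318573-45318772, minus strand), 66 to 62 in Mxi1 (chr19:53329213-53329412, plus strand) and 6 to 2 in Ankrd37 (chr8:45999851-46000050, minus strand). They lie 108 to 103 in Bnip3 (chr7:138909507-138909706, minus strand), 81 to 77 in Fam162a (chr16:36071562-36071761, minus strand) and 36 to 32 in Slc2a1 (chr4:119108545-119108744, plus strand). In Bnip3 the capitals are the palindrome CACGTG, in which both strands match.
Ero1l: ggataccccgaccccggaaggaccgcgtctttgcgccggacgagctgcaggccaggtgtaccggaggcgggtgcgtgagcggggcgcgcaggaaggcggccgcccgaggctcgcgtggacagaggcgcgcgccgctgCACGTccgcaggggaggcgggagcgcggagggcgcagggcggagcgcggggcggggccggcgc
Mxi1: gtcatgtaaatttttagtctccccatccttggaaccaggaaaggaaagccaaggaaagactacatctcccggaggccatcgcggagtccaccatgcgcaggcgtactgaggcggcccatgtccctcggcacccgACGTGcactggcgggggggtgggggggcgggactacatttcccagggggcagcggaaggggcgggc
Ankrd37: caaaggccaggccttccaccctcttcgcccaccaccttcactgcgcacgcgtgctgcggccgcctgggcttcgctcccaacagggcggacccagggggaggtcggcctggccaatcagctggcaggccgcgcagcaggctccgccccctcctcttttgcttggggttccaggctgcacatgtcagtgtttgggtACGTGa
Bnip3: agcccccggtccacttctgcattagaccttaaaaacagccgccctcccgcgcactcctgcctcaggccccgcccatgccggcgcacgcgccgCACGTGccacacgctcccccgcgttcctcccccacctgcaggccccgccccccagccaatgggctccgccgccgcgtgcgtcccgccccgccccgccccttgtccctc
Fam162a: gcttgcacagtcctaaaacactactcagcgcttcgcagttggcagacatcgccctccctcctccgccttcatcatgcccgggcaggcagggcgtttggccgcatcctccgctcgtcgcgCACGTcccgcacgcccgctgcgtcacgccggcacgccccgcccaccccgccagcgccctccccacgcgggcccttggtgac
Slc2a1: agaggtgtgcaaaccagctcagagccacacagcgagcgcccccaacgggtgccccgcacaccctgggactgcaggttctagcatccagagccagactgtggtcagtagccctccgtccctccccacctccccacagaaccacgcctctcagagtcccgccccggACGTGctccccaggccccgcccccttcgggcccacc

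Genes that HIF is known to induce were higher in hypoxia as a group. Of 32 targets outside glycolysis, 6 rose without the block (0.469% of all genes rose). With it 22 rose and 1 fell (7.86% and 6.40% of all genes), and without hypoxia 1, 15 rose and none fell. The hypoxic libraries lay above the normoxic ones for 25, against 29.9% of all genes. The median log2 fold change was 2.09. Ndrg1 (chr15:66929318-66969640), a long-used hypoxia marker, was at 41.4 and 26.5 CPM in normoxia and 1209.8 and 913 CPM in hypoxia, a log2 fold change of 4.97 (SE 0.40, adjusted p = 0.0251). Ero1l, the ER oxidase that makes disulfide bonds, went from 108 and 44.2 CPM to 3033 and 1796 CPM (log2 fold change 4.99, SE 0.64, adjusted p = 0.0488). In both genes the lowest hypoxic library was more than an order of magnitude above the highest normoxic one. Selenbp1, a methanethiol oxidase, was at 9.87 and 7.94 CPM in normoxia and 223 and 208 CPM in hypoxia (4.59, SE 0.28, adjusted p = 0.016), and 29.9% of its 75-base stretches are common to it and Selenbp2. Tmem45a was at 11.3 and 9.13 CPM in normoxia and 95.5 and 88.3 CPM in hypoxia (adjusted p = 0.0425). Mxi1, a repressor that competes with MYC for its partner MAX, was at 57.7 and 42.6 CPM in normoxia and 243 and 252 CPM in hypoxia (adjusted p = 0.0431). The mitophagy receptor Bnip3l was at 82.2 and 64.3 CPM in normoxia and 498 and 354 CPM in hypoxia (adjusted p = 0.0488), so that the groups did not overlap for any of the 6.

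The 16 further targets that rose did so with the block only. Bnip3, the paralog of Bnip3l in mitophagy, was at 113 and 21.9 CPM in normoxia and 854 and 600.4 CPM in hypoxia. Its log2 fold change of 3.43 (SE 0.79, adjusted p = 0.0873) became 3.74 (SE 0.57, adjusted p = 0.0218) with the block. Normoxia 1 was the higher normoxic library for Bnip3, and the same held for Ak4, Mgarp and Fam162a. Some counts of this list are uncertain: 11.4% of the 75-base stretches of Bnip3 and 16.9% of those of Bnip3l occur in other genes. Exons of other genes on the opposite strand cover 22.3% of the Bnip3 exons and 26.4% of the Ankrd37 exons, and whether counting used strand is not given in the sources used here. Stc2, a secreted glycoprotein, was close to absent in normoxia at 1.75 and 0.441 CPM and reached 57.9 and 53.8 CPM in hypoxia (5.89, SE 0.54, adjusted p = 0.0134 with the block, 0.0586 without). Ndufa4l2, a respiratory chain-associated protein, was at 2.34 and 0.126 CPM in normoxia and 38 and 46.5 CPM in hypoxia (adjusted p = 0.0243 with the block). P4ha1, P4ha2 and Plod2, which hydroxylate collagen, rose with the block (adjusted p = 0.0453, 0.0157 and 0.0215), whereas Lox, which cross-links collagen, was at 1368 and 1264 CPM in normoxia and 1092 and 2144 CPM in hypoxia, overlapping values. Ppfia4 was the member that fell with the block, from 4.17 and 7.43 CPM to 0.4998 and 2.33 CPM. Car9, a carbonic anhydrase often taken as a marker of hypoxia, was low in every library (4.75 and 3.53 CPM in normoxia and 6.86 and 7.09 CPM in hypoxia; adjusted p = 0.197 with the block).

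Glucose uptake and glycolysis genes moved the same way. Of 28, Pfkp alone rose without the block, and 16 rose and none fell with it. Over all genes, 0.469% rose without the block and 7.86% with it. Fewer members rose with the block when hypoxia 1, hypoxia 2 or normoxia 2 was left out, and without normoxia 2 some fell. The median log2 fold change was 1.45, and it kept that sign in each of these fits. Pfkp, the platelet isoform of phosphofructokinase, was at 94.7 and 91.8 CPM in normoxia and 497 and 512 CPM in hypoxia (log2 fold change 2.44, SE 0.25, adjusted p = 0.0425), with replicates that nearly coincided. Slc2a1, the main basal glucose transporter, was at 360.0 and 121 CPM in normoxia and 2234 and 1666 CPM in hypoxia (3.16, SE 0.43, adjusted p = 0.0202 with the block, 0.0745 without). The hexokinase Hk1 was at 273 and 225 CPM in normoxia and 1347 and 1072 CPM in hypoxia (adjusted p = 0.0157 with the block, 0.0601 without). Phosphoglycerate kinase, Pgk1, went from 959 and 463 CPM to 3070.3 and 2456 CPM (adjusted p = 0.0337 with the block), and 52.8% of its stretches occur in other genes. Gapdh was at 3350.3 and 1933 CPM in normoxia and 9472 and 6485 CPM in hypoxia. Eno1 was at 2588 and 1509 CPM in normoxia and 6237 and 5201 CPM in hypoxia. Both were called with the block only, and 22.6% and 23.0% of their stretches occur elsewhere. Ldha, which turns pyruvate into lactate, was at 1656 and 804 CPM in normoxia and 3228 and 2841 CPM in hypoxia and was not called in either fit (adjusted p = 0.152, and 0.0767 with the block). The lactate exporter Slc16a3, at 605 and 157 CPM in normoxia and 1324 and 1065 CPM in hypoxia, was not called either. Pfkfb3, a regulator of glycolytic flux, overlapped between conditions: normoxia 1 held 315 CPM and normoxia 2 30.7 CPM, and the hypoxic libraries held 222 and 309 CPM.

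Glycogen synthesis genes followed (with the block, 7.86% of all genes rose and 6.40% fell). Of 12 genes of the list, 5 rose and 1 fell with the block, none passed without it, and 5 rose without hypoxia 1. Gbe1, the branching enzyme, was at 17.2 and 18.6 CPM in normoxia and 252 and 203 CPM in hypoxia (3.63, SE 0.40, adjusted p = 0.0156 with the block, 0.0525 without). Glycogen synthase Gys1 was at 189 and 69.99 CPM in normoxia and 723 and 698 CPM in hypoxia (adjusted p = 0.0218 with the block). Pgm1, which supplies glucose phosphate for it, was at 142 and 51.7 CPM in normoxia and 583 and 511 CPM in hypoxia (adjusted p = 0.0206 with the block). The phosphorylases, which break glycogen down, did not rise. Pygb fell with the block from 75.1 and 112 CPM to 39.3 and 53.7 CPM. Pygl was at 161 and 82 CPM in normoxia and 72.4 and 195 CPM in hypoxia, overlapping values whose fold change had no stable sign.

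**Figure D3:**
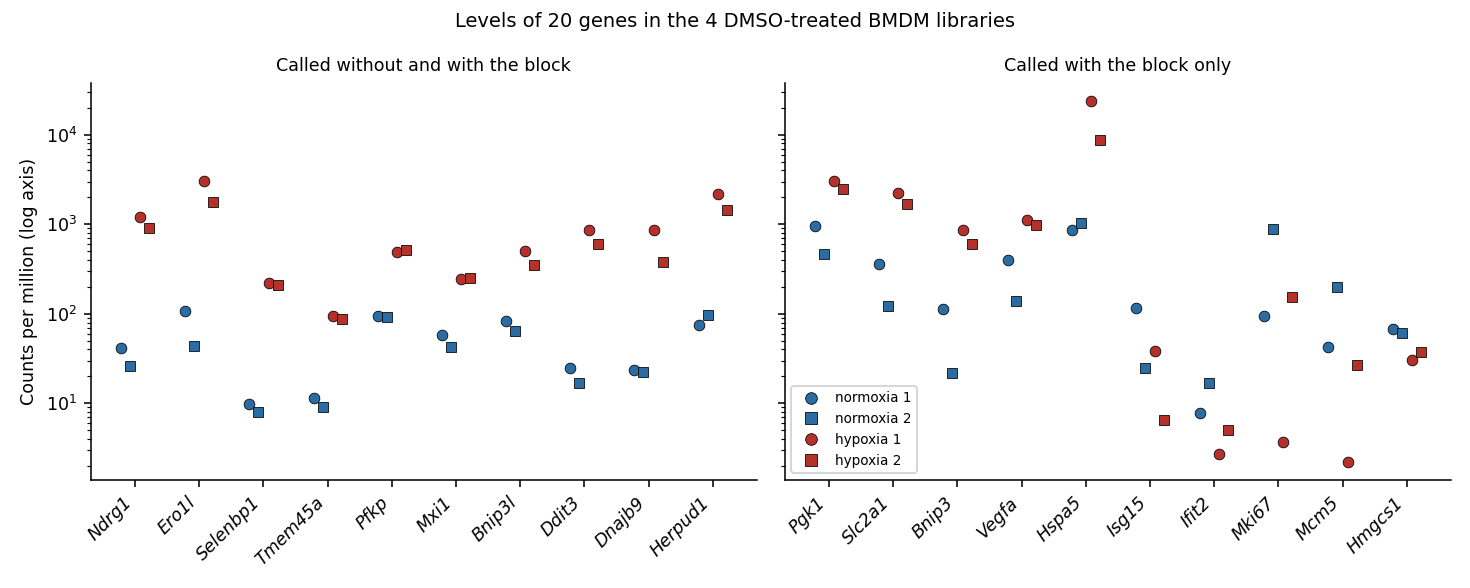
Level in CPM (log axis) of 20 genes in the 4 DMSO-treated BMDM libraries; blue is normoxia, red hypoxia, circles library 1 and squares library 2. The 10 genes on the left passed in both fits and show hypoxic levels well above normoxic ones, for example Ndrg1 and Ddit3. The 10 on the right passed with the block only, and for Isg15 and Mki67 the groups overlap while each hypoxic library is below the normoxic library of its number.

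The oxygen sensors and HIF subunits were read next (10 of 11 genes tested). Egln1, the main prolyl hydroxylase and itself a HIF target, rose with the block from 176 and 80.8 CPM to 769.9 and 637 CPM (2.54, SE 0.32, adjusted p = 0.0174; 0.0729 without), also without hypoxia 1. Egln3 was at 92.5 CPM in normoxia 1 and 6.24 CPM in normoxia 2 against 251 and 377 CPM in hypoxia, and was not called (adjusted p = 0.112 with the block). Hif1a mRNA fell with the block, from 492 and 146 CPM to 72.1 and 74 CPM (-1.89, SE 0.45, adjusted p = 0.0458), but not without hypoxia 1; its partner Arnt was level at 68.6 and 66.1 CPM in normoxia and 63.9 and 66 CPM in hypoxia. Transcript levels say nothing of the HIF proteins.

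Of the 22 jumonji demethylases and TET enzymes tested, most of which need oxygen to remove methyl marks, Kdm3a rose without the block, 6 rose and none fell with it, and 3 rose without hypoxia 1. Kdm3a was at 57.2 and 36.8 CPM in normoxia and 245 and 271 CPM in hypoxia (2.46, SE 0.29, adjusted p = 0.0449), Kdm4b at 68.6 and 40.4 CPM in normoxia and 178 and 229 CPM in hypoxia, and Jmjd6 at 67.1 and 39.2 CPM in normoxia and 279 and 177 CPM in hypoxia. The list's median log2 fold change was 0.53, and 7.86% of all genes rose with the block. Of 11 histone deacetylases, Hdac1 fell with the block (92.7 and 93.9 CPM to 47.3 and 52 CPM, adjusted p = 0.0403), against 6.40% of all genes. Of its stretches 29.3% occur elsewhere, and the median of the deacetylases was -0.03.

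Angiogenic factors did not move as a group (with the block, 7.86% of all genes rose and 6.40% fell). Of 18, none passed without the block, 3 rose and 1 fell with it, 1 rose without hypoxia 1, and the median was 0.10. Vegfa, the main vessel growth factor, was at 396 and 139 CPM in normoxia and 1106 and 979.9 CPM in hypoxia (2.14, SE 0.39, adjusted p = 0.0293 with the block, 0.116 without). Adm, encoding the vasodilator peptide adrenomedullin, was at 19.3 and 4.09 CPM in normoxia and 291 and 128 CPM in hypoxia (adjusted p = 0.0134 with the block). Thbs1, an inhibitor of angiogenesis, was at 5367 and 7454 CPM in normoxia and 887 and 4285 CPM in hypoxia and was not called (adjusted p = 0.076 with the block).

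The unfolded protein and integrated stress response had the highest median of the lists, 2.45. Of its 28 genes, 6 rose without the block and 21 with it, none fell in either, 10 rose without hypoxia 1, and the hypoxic libraries lay above the normoxic ones for all 28. Over all genes, 0.469% rose without the block, 7.86% rose with it, and 29.9% had hypoxic libraries above the normoxic ones. Ddit3, the stress-induced transcription factor CHOP, was at 25.1 and 16.7 CPM in normoxia and 867 and 602 CPM in hypoxia, a log2 fold change of 5.14 (SE 0.49, adjusted p = 0.0425). Its target Trib3, a pseudokinase, was at 16.7 and 16.8 CPM in normoxia and 458 and 349 CPM in hypoxia (4.59, SE 0.54, adjusted p = 0.0431). Chac1, which degrades glutathione, was at 11.3 and 13.2 CPM in normoxia and 56.8 and 83.1 CPM in hypoxia (adjusted p = 0.0425). Dnajb9, an ER co-chaperone, was at 23.5 and 22.4 CPM in normoxia and 859 and 383 CPM in hypoxia (4.76, SE 0.51, adjusted p = 0.0425). Herpud1, part of the machinery that exports misfolded proteins for degradation, was at 74.3 and 95.9 CPM in normoxia and 2169 and 1432 CPM in hypoxia (4.40, adjusted p = 0.0425). Creld2, an ER chaperone, was at 63.5 and 66.3 CPM in normoxia and 1983 and 993 CPM in hypoxia (4.52, adjusted p = 0.0426).

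The ER chaperones Hspa5, Hsp90b1 and Pdia4 rose with the block only, with hypoxia 1 far above hypoxia 2. Hspa5 (BiP), the master chaperone of the ER, was at 856 and 1047 CPM in normoxia, 23796 CPM in hypoxia 1 and 8783 CPM in hypoxia 2 (3.88, SE 0.60, adjusted p = 0.0227 with the block, 0.0729 without). Hsp90b1 (GRP94) was at 716 and 793 CPM in normoxia and 11862 and 6126 CPM in hypoxia (adjusted p = 0.0202 with the block). The disulfide isomerase Pdia4 was at 275 and 243 CPM in normoxia and 6119 and 3256 CPM in hypoxia (adjusted p = 0.0138 with the block). Atf4, the effector of the integrated stress response, was at 217 and 138 CPM in normoxia and 564 and 531 CPM in hypoxia (adjusted p = 0.0302 with the block). Ppp1r15a, which restores translation, was at 29.6 and 23.9 CPM in normoxia and 607 and 365 CPM in hypoxia (adjusted p = 0.0134 with the block). The serine and one-carbon genes Phgdh, Psat1, Shmt2 and Mthfd2 were not called in either fit, with log2 fold changes from 0.58 to 0.69. Outside the list, and chosen after their values were seen, several more of the 72 belong to the ER. Sel1l and Syvn1 form the core of a ligase for ER-associated degradation. Sel1l was at 165 and 240.4 CPM in normoxia and 1648 and 1505 CPM in hypoxia (adjusted p = 0.0431), and Syvn1 at 112 and 112 CPM in normoxia and 1383 and 932 CPM in hypoxia (adjusted p = 0.0425). Dnajc3, Wfs1, Ero1lb and Creld1 had log2 fold changes of 3.02, 2.57, 2.63 and 1.68 with adjusted p of 0.0474, 0.0425, 0.0431 and 0.0488.

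Among named genes averaging 4 or more log2 CPM, the largest rise past the threshold in both fits was that of Derl3 (chr10:75893413-75895941), which acts in ER-associated degradation. It was at 0.365 and 1.64 CPM in normoxia and 404 and 171 CPM in hypoxia (log2 fold change 8.13, SE 0.85, adjusted p = 0.0425). Esam (chr9:37528078-37538319), an adhesion molecule first described in endothelium, had 1 and 5 counts in normoxia and 45 and 46.1 CPM in hypoxia (7.76, SE 0.56, adjusted p = 0.0192). The summed endothelial markers were 8.5 and 31.9 CPM in normoxia and 45.6 and 113 CPM in hypoxia. Vwf led it at 28.4 CPM in normoxia 2, 44.8 CPM in hypoxia 1 and 111.6 CPM in hypoxia 2, and was level with Pecam1 at 3.05 CPM in normoxia 1; Cldn5 was at 0 in all 4 libraries. Tenm4, a teneurin, was at 0.877 and 1.13 CPM in normoxia and 41.2 and 55.9 CPM in hypoxia (adjusted p = 0.0488). Fam174b was at 1.32 and 1.01 CPM in normoxia and 54.1 and 52 CPM in hypoxia (adjusted p = 0.0127). The keratin Krt19 (chr11:100140810-100148665) was at 3.07 and 3.4 CPM in normoxia and 143 and 142 CPM in hypoxia (adjusted p = 0.0127). Krt19 and Fam174b had the smallest adjusted p of the comparison. In untreated BMDM, Krt19 was at 0.216 and 0 CPM in normoxia and 2.72 and 3.17 CPM in hypoxia. Fam174b was at 0 and 0.126 CPM in normoxia and 0.93 and 0.743 CPM in hypoxia there. Apln, given next, went from 0.162 and 0.0629 CPM to 3.93 and 2.03 CPM there. Krt19, Fam174b and Apln thus rose in untreated BMDM too, to low levels (edgeR, adjusted p = 0.000898, 0.00948 and 0.000624). Esam was at 50.2 and 39 CPM and Derl3 at 114 and 119 CPM in untreated hypoxic BMDM. Tenm4, Tmem45a and Tead2 were not tested in untreated BMDM. The part of stromal RNA in these levels was not tested. Apln (chrX:48025146-48034853), the ligand of the apelin receptor, was at 1.17 and 1.07 CPM in normoxia and 34.8 and 37.2 CPM in hypoxia (5.00, SE 0.54, adjusted p = 0.0425). The 2 genes that fell without the block were Tead2 and Apobec3. Tead2, a transcription factor of the Hippo pathway, fell from 42.3 and 33.7 CPM to 8.07 and 7.98 CPM (-2.24, SE 0.29, adjusted p = 0.0488). The antiviral cytidine deaminase Apobec3 fell from 46.4 and 45 CPM to 10.6 and 11.3 CPM (-2.06, SE 0.24, adjusted p = 0.0431). With the block, the largest rises added Syt17 (0.292 and 0.756 CPM to 43.1 and 17.2 CPM), Angptl6 (1.83 and 2.27 CPM to 159 and 58.4 CPM) and the glutaminase Gls2 (0.439 and 0.63 CPM to 31.9 and 12.3 CPM). The largest falls with the block were those of Nxpe5 (138 and 18.4 CPM to 1.07 and 2.33 CPM) and the macrophage gene Aif1 (88.4 and 29.4 CPM to 0.9997 and 6.2 CPM). They were followed by the hyaluronan-degrading Cemip (233 and 325 CPM to 5.64 and 36.7 CPM) and Fgd2 (56.6 and 62.7 CPM to 1.29 and 9.97 CPM). Of the next 6, Ccn5, Alpl and Col8a2 belong to matrix or bone cells, Itgal and Lfng to leukocytes and Notch signalling, and Ckap2l to mitosis; each was lower in hypoxia 1 than in hypoxia 2 except Alpl (4.86 and 3.1 CPM).

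Interferon response genes were lower in hypoxia. Of 46, none passed without the block; with it 37 fell and 1 rose, against 6.40% and 7.86% of all genes. The hypoxic libraries lay below the normoxic ones for 41, against 29.0% of all genes, and the median log2 fold change was -2.26. No fall was called without hypoxia 1, and the number called otherwise varied with the library left out. Normoxia 1 was the library with the highest list median. Irf7, the transcription factor that amplifies type I interferon, was at 516 CPM in normoxia 1, 47.1 CPM in normoxia 2 and 22.9 and 11.2 CPM in hypoxia (-3.59, SE 0.84, adjusted p = 0.0448 with the block, 0.108 without). Ifitm3, a restriction factor for virus entry, was at 1270.4 and 439.9 CPM in normoxia and 212 and 213 CPM in hypoxia, and Oasl1, a sensor-like protein, at 28.4 and 8.5 CPM in normoxia and 0.785 and 0.554 CPM in hypoxia (adjusted p = 0.0422 and 0.0205 with the block). Ifi44l was at 20.7 and 6.05 CPM in normoxia and 0.143 and 0.222 CPM in hypoxia, and Mx1, a dynamin-like antiviral protein, at 11 and 7.31 CPM in normoxia and 0 and 0.886 CPM in hypoxia (adjusted p = 0.0206 and 0.0437 with the block). The RNA sensors Ddx58 (RIG-I; 149 and 83 CPM in normoxia and 13.5 and 28.2 CPM in hypoxia) and Ifih1 (MDA5; 56 and 33.9 CPM in normoxia and 16.3 and 17.6 CPM in hypoxia) fell with the block too. Isg20, an exonuclease, went the other way, from 12.3 and 5.29 CPM to 72.8 and 41.7 CPM (2.78, SE 0.26, adjusted p = 0.0134 with the block). The median over members, in log2 units around each gene's mean, was 1.62 and 0.45 in normoxia and -1.04 and -0.93 in hypoxia. The macrophage, osteoclast, neutrophil and osteoblast marker sums were also highest in normoxia 1 and lower in both hypoxic libraries, and their part in the interferon result was not tested.

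Genes of sensing and antigen presentation were called in both directions. Of 25 pattern recognition genes, 4 fell and 1 rose with the block (6.40% of all genes fell and 7.86% rose) and none without it or without hypoxia 1. Cgas, the sensor of cytosolic DNA, was at 13.2 and 19.8 CPM in normoxia and 2.36 and 5.43 CPM in hypoxia (adjusted p = 0.033 with the block). Tlr2, a receptor for bacterial lipopeptides, was at 198 and 213 CPM in normoxia and 46.2 and 62.8 CPM in hypoxia (adjusted p = 0.0212 with the block). Of 14 genes of MHC class I presentation, 3 rose and 4 fell with the block. Those that rose were the ER chaperones Calr, Canx and Pdia3 (Calr 1967 and 1796 CPM to 10209 and 5253 CPM, adjusted p = 0.0337). Those that fell were the peptide transporter subunit Tap2, the immunoproteasome subunits Psmb8 and Psmb10, and the peptidase Erap1 (65.6 and 70.1 CPM to 24.9 and 27.5 CPM, adjusted p = 0.0254). H2-D1 itself was at 2817 and 1741 CPM in normoxia and 3467 and 1796 CPM in hypoxia, overlapping values. Of 12 class II genes, H2-Ab1 rose with the block (28.3 and 15.9 CPM to 167 and 60.8 CPM, adjusted p = 0.0181) and H2-DMb1 and the thiol reductase Ifi30 fell; no gene of either class passed without hypoxia 1.

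Proliferation genes were lower in hypoxia within each replicate number. The counts with the block in this paragraph stand against 6.40% of all genes falling and 7.86% rising. Of 23 mitosis genes, 22 fell with the block and none without it; 11 fell without hypoxia 1. Of 35 DNA replication genes, 23 fell with the block and 4 without hypoxia 1. Of 24 genes of homologous recombination, the Fanconi pathway and mismatch repair, 10 fell with the block and 1 without hypoxia 1. None of these genes rose in any of these fits. Median log2 fold changes were -2.74, -1.86 and -2.02. The proliferation marker Mki67 was at 93.7 CPM in normoxia 1, 879.6 CPM in normoxia 2, 3.71 CPM in hypoxia 1 and 153 CPM in hypoxia 2. Hypoxia 2 thus exceeded normoxia 1, while each hypoxic library lay below the normoxic one of its number (-3.36, SE 0.63, adjusted p = 0.0311 with the block, 0.389 without). Top2a, which untangles chromosomes, was at 81 and 486 CPM in normoxia and 5.998 and 79 CPM in hypoxia (adjusted p = 0.0156 with the block). Mcm5, a subunit of the replicative helicase, was at 42.1 and 198 CPM in normoxia and 2.21 and 27 CPM in hypoxia (adjusted p = 0.0156 with the block). The ribonucleotide reductase subunit Rrm1 was at 76.7 and 223 CPM in normoxia and 19.6 and 47.9 CPM in hypoxia (adjusted p = 0.021 with the block). Rad54l, a recombination helicase, was at 6.65 and 41.8 CPM in normoxia and 0.286 and 4.65 CPM in hypoxia, and Fancd2 at 4.46 and 34.5 CPM in normoxia and 0.357 and 3.88 CPM in hypoxia (adjusted p = 0.0161 and 0.0167 with the block). Normoxia 2 had the highest list medians for replication and mitosis. Of 20 cell cycle inhibitors and BCL2 family genes, Cdkn1b (59.9 and 45.5 CPM to 133 and 132 CPM) and the death effector Bbc3 (27 and 27 CPM to 69.9 and 66.4 CPM) rose with the block. Bcl2a1a, with 55.2% of its stretches found in other genes, also rose and Cdkn2c fell. None passed without hypoxia 1.

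**Figure D4:**
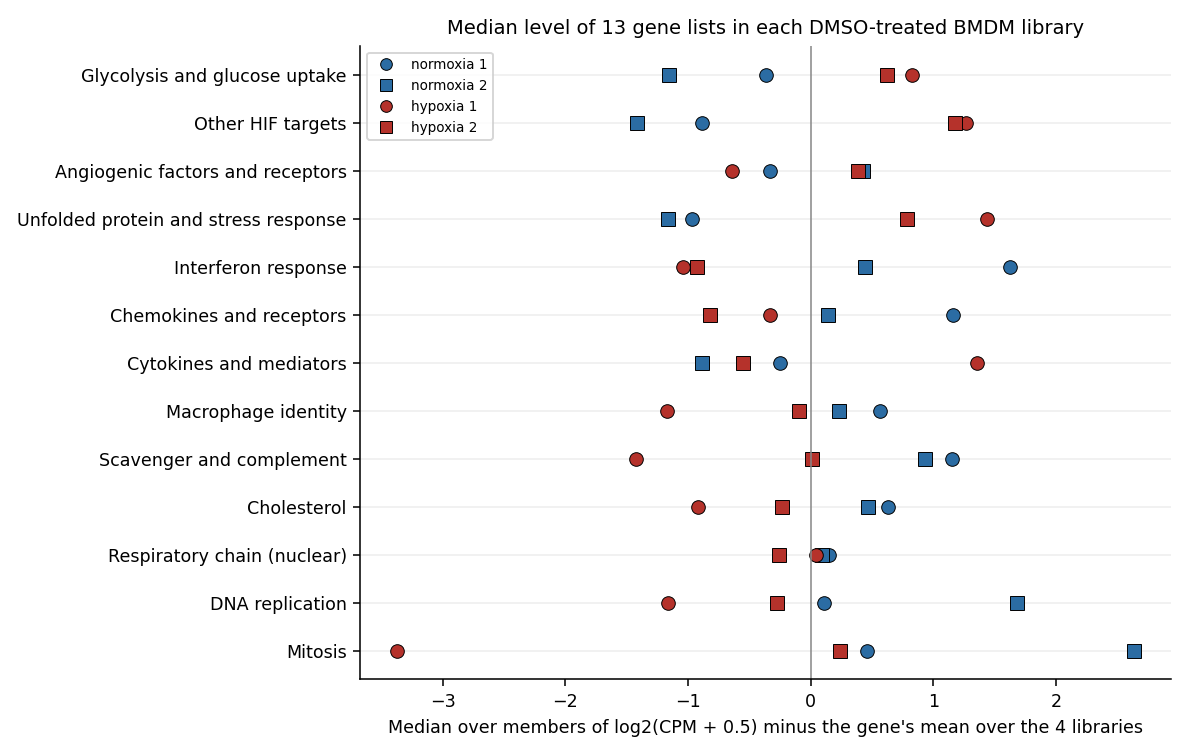
Median over the members of 13 gene lists of log2(CPM + 0.5) minus the gene's mean over the 4 DMSO-treated BMDM libraries; 1 point per library, blue normoxia and red hypoxia, circles library 1 and squares library 2. Other HIF targets separate the conditions (-0.88 and -1.41 in normoxia, 1.27 and 1.17 in hypoxia), whereas for mitosis the spread within a condition (0.46 and 2.64 in normoxia, -3.37 and 0.24 in hypoxia) is wide.

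Sterol synthesis genes were lower as well. Of 28 genes of cholesterol synthesis, uptake and efflux, 9 fell and 1 rose with the block (6.40% and 7.86% of all genes), none passed without it or fell without hypoxia 1, and the median was -1.38. Srebf2, the transcription factor that drives the pathway, was at 345 and 333 CPM in normoxia and 82 and 150.98 CPM in hypoxia (-1.64, SE 0.33, adjusted p = 0.034 with the block). Dhcr7, which acts late in the pathway, was at 20.5 and 28.3 CPM in normoxia and 5.28 and 6.09 CPM in hypoxia (adjusted p = 0.0214 with the block). Nr1h3, the liver X receptor alpha, was at 42.9 and 34.5 CPM in normoxia and 4.21 and 9.97 CPM in hypoxia (adjusted p = 0.0257 with the block). Mvd rose from 31.3 and 26.3 CPM to 57.1 and 45 CPM with the block. The efflux pump Abca1 was at 461 CPM in normoxia 1, 93.7 CPM in normoxia 2 and 65.8 and 117 CPM in hypoxia, where only normoxia 1 stood out.

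The median level of the macrophage identity genes was lowest in hypoxia 1, as was the macrophage marker sum. Of 23 such genes, Aif1 alone fell with the block, against 6.40% of all genes, and none passed without it. That call did not hold without hypoxia 1, and which other members were called varied with the library left out. The hypoxic libraries lay below the normoxic ones for 13 and above for 1, against 29.0% and 29.9% of all genes. Lyz2, the macrophage lysozyme, was at 20765 and 12993 CPM in normoxia, 1053 CPM in hypoxia 1 and 7544 CPM in hypoxia 2 (-2.92, SE 1.03, adjusted p = 0.104 with the block). Csf1r, the receptor for the macrophage growth factor, was at 2979.5 and 2609.8 CPM in normoxia and 1270.1 and 1963 CPM in hypoxia, and Lgals3 at 883 and 1441 CPM in normoxia and 4118 and 2968 CPM in hypoxia, neither called. Of 23 scavenger, efferocytosis and complement genes, 3 fell with the block (Marco, Gas6 and Itgb5), against 6.40% of all genes. The list's median was -1.69, and these calls did not hold without hypoxia 1. C1qa, a subunit of the first complement component, was at 1490.1 and 693 CPM in normoxia, 4.5 CPM in hypoxia 1 and 246 CPM in hypoxia 2 (adjusted p = 0.11 with the block). The scavenger receptor Stab1 was at 1747 and 1953 CPM in normoxia and 49.98 and 1111 CPM in hypoxia. The stromal sum was lowest in the same library. Col1a1 was at 13909 and 12662 CPM in normoxia, 1702 CPM in hypoxia 1 and 8976 CPM in hypoxia 2. Of 21 stromal markers tested 4 fell with the block (Pdgfra, Pdgfrb, Loxl1 and Fstl1), none without hypoxia 1. Mrc1, the mannose receptor, was at 234 and 126 CPM in normoxia and 3.93 and 37.4 CPM in hypoxia. Arg1, arginase, was at 1761 CPM in normoxia 1 and 2.08 CPM in normoxia 2 against 192 and 218 CPM in hypoxia, so that no direction could be read. None of the 12 genes of this list was called in either fit. Of 25 lipid genes, Plin3, Hilpda and Vldlr rose and Lipe fell with the block (7.86% and 6.40% of all genes). The calls of Plin3 and Lipe did not hold without hypoxia 1. Hilpda, a HIF-regulated inhibitor of triglyceride breakdown, was at 8.62 and 5.67 CPM in normoxia and 177 and 61.5 CPM in hypoxia (3.90, SE 0.30, adjusted p = 0.0127 with the block), and Vldlr, a lipoprotein receptor, at 13.2 and 10.02 CPM in normoxia and 62.8 and 104 CPM in hypoxia.

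Inflammatory genes differed widely between replicates. The counts with the block in this paragraph stand against 7.86% of all genes rising and 6.40% falling. Of 25 cytokine and mediator genes, 6 rose and 1 fell with the block, 1 rose without hypoxia 1, and the median of 0.60 became -0.52 without hypoxia 1. Nos2, the inducible nitric oxide synthase, rose within each number, at 19 and 5.17 CPM in normoxia and 279 and 81 CPM in hypoxia (3.92, SE 0.22, adjusted p = 0.00832 with the block, 0.103 without). Il15 was at 14.7 and 7.94 CPM in normoxia and 74.3 and 40.2 CPM in hypoxia (adjusted p = 0.0156 with the block). Il6 was at 4.24 and 80.9 CPM in the libraries numbered 1 and at 0.189 and 0.111 CPM in those numbered 2. It was called with the block (adjusted p = 0.0437), with a log2 fold change of -4.24 to 7.65 when 1 library was left out. Of 22 chemokines and receptors, Cxcl2 rose and Ccl9 fell with the block and none passed without hypoxia 1. The neutrophil chemokine Cxcl2 was at 181 CPM in normoxia 1, 17.8 CPM in normoxia 2, 2760.4 CPM in hypoxia 1 and 54.4 CPM in hypoxia 2, and Il1b, not called, at 398, 3.53, 219 and 1.66 CPM in the same order. Of 25 immediate early genes, Ier3, Klf4 and Myc rose with the block and none without hypoxia 1; Fosb was at 240.1 CPM in hypoxia 1 and at or below 1.44 CPM in the other libraries. Of 14 checkpoint and adenosine genes, Cd274 (PD-L1; 42 and 11.9 CPM to 92.2 and 37.9 CPM) and the costimulator Cd86 (9.36 and 4.6 CPM to 63.8 and 38.3 CPM) rose with the block. Lgals9, Entpd1 and Adora2b fell with it; without hypoxia 1, Cd86 alone was called.

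Of 32 nuclear-encoded respiratory chain genes, none fell in either fit, the median was -0.23, and 2 rose with the block (7.86% of all genes rose with it and 6.40% fell, also for the lists that follow). The hypoxic libraries lay below the normoxic ones for 16 of the 32 and above for 2, against 29.0% and 29.9% of all genes. In untreated BMDM, 18 of the list were called lower and 2 higher, against 23.2% and 24.3% of all genes there. Cox4i2, the isoform of cytochrome c oxidase subunit 4 that can replace Cox4i1 in hypoxia, was at 0.512 and 0.567 CPM in normoxia and 11.9 and 5.87 CPM in hypoxia (adjusted p = 0.0173). Lonp1, in the list though it is a mitochondrial protease, was at 115 and 119 CPM in normoxia and 691 and 351 CPM in hypoxia (adjusted p = 0.0235). Of 10 mitochondrially encoded transcripts, mt-Nd1 (564 and 569 CPM to 175 and 199 CPM, adjusted p = 0.0243) and mt-Nd2 fell with the block. Of 15 iron genes, Hmox1, Slc40a1 and Slc11a2 rose and Tfrc and Steap3 fell with the block, with 1 rise and no fall without hypoxia 1. Hmox1, which breaks down haem, was at 1168 and 574 CPM in normoxia and 7789 and 4357 CPM in hypoxia (2.83, SE 0.34, adjusted p = 0.0167), and the transferrin receptor Tfrc at 53.1 and 61.1 CPM in normoxia and 18.8 and 15.2 CPM in hypoxia (adjusted p = 0.0185). Of 16 NRF2 antioxidant genes, Srxn1 (89 and 137 CPM to 771 and 349.8 CPM) and Cat (119 and 332 CPM to 1268 and 833 CPM) rose with the block and none without hypoxia 1.

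The untreated BMDM of the other experiment carried few stromal transcripts, and their replicates were closer (biological coefficient of variation 0.108, against 0.381 in the DMSO experiment without the block and 0.269 with it). There, 6289 of 13237 genes (47.5%) were called between hypoxia and normoxia, 24.3% higher and 23.2% lower. Of the 72 genes called here in both fits, 51 were tested there and 50 were called in the same direction. Of the 2127 called with the block, 1832 were tested there, 1543 were called in the same direction (72.5% of the genes called here and 24.5% of those called there) and 8 in the opposite one. Over 12750 genes tested in both, which share no library, the 2 sets of log2 fold changes had a Pearson's r of 0.70 and a Spearman's rho of 0.68 across genes, which are not independent replicates. Group medians in DMSO-treated and untreated BMDM were 2.09 and 2.98 for other HIF targets, 1.45 and 1.75 for glycolysis, 2.45 and 1.71 for the unfolded protein response. They were -2.26 and -0.81 for interferon genes, -2.74 and -1.13 for mitosis, and -1.38 and -0.61 for cholesterol genes. Other lists had medians of opposite sign, negative with DMSO and positive without: macrophage identity (-1.10 and 0.09), chemokines and receptors (-1.17 and 0.54), arginine metabolism and alternative activation (-0.89 and 0.56), checkpoint genes (-0.57 and 0.06) and class II presentation (-0.24 and 0.25). The same held for lipid genes (-0.04 and 0.39), cell cycle inhibitors and BCL2 family genes (-0.11 and 0.35) and stromal markers (-1.32 and 0.27).

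Levels in the 2 experiments are given side by side for genes of these groups. Adm was at 0.379 and 0.126 CPM in untreated normoxia and 125 and 106 CPM in untreated hypoxia. In the same order, Egln3 was at 3.25 and 3.59 CPM and then 397 and 377 CPM. Nos2 was at 0.271 and 0.378 CPM and then 70.7 and 60.1 CPM, and Arg1 at 0.216 and 1.32 CPM and then 177 and 95.1 CPM. The normoxic DMSO libraries were higher for Adm, Egln3 (normoxia 1 most) and Nos2. Hspa5 reached 4718 and 5384 CPM in untreated hypoxia from 1259 and 1114 CPM, a log2 fold change of 2.09 against 4.10 with DMSO, and the difference was not past the threshold (2.04, SE 0.75, adjusted p = 0.572). Of 15526 genes tested for a difference in hypoxia effect between DMSO-treated and untreated BMDM, 0 were called (0%) by edgeR without or with the block. In these fits 1287 and 1990 had an unadjusted p under 0.05, the smallest adjusted p was 0.216 and 0.112, and DESeq2 called 88. This does not show that the effects were equal, and vehicle and experiment cannot be told apart. Levels are scaled within each table.

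**Figure D5:**
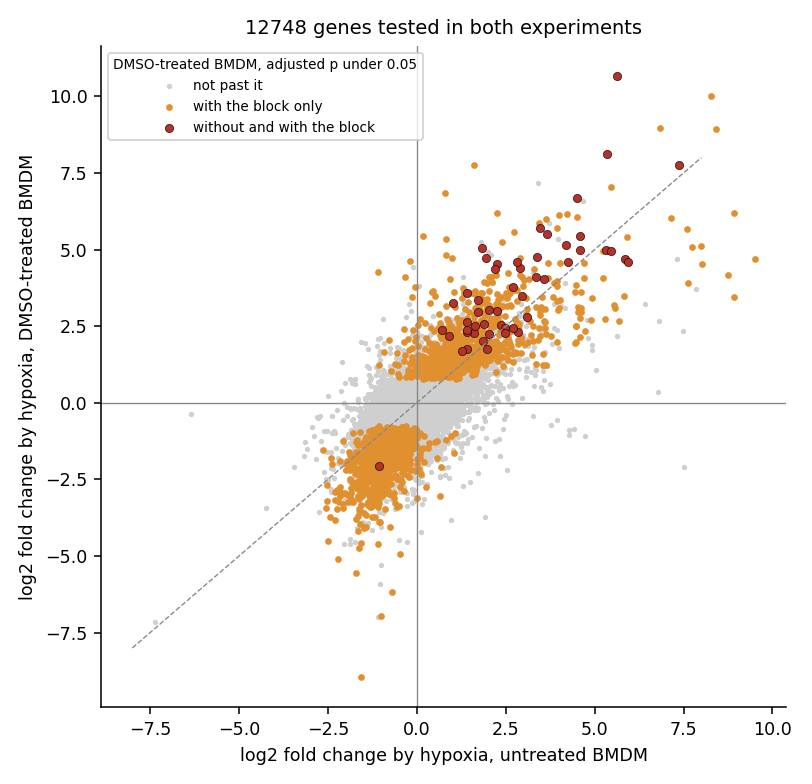
Log2 fold change by hypoxia in untreated BMDM (x axis) and in DMSO-treated BMDM (y axis, fit without the block) for 12748 gene symbols tested in both, with the line of equality dashed. Grey points were not past an adjusted p of 0.05 in the DMSO experiment, orange points with the block only and red points in both fits. Of the 51 red points, 50 were called in the same direction in untreated BMDM; the highest are Smtnl2, Derl3 and Esam.

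Against BV2 cells given the same vehicle, 106 of 15955 genes (0.664%) differed in their response to hypoxia without the block, 33 with the larger value in BMDM (0.207%) and 73 with the larger in BV2 (0.458%). With the block it was 1298 (8.14%), 563 (3.53%) and 735 (4.61%). Without normoxia 1 or hypoxia 1 the first count was 0, without normoxia 2 it was 104 and without hypoxia 2 it was 1203. In BV2 cells on their own, 4980 of 13294 genes (37.5%) were called, 17.2% higher and 20.2% lower. Of the 2127 genes called with the block in BMDM, 1740 were tested in BV2, 1013 were called in the same direction there (47.6% of the genes called in BMDM and 20.3% of those called in BV2) and 51 in the opposite one. Pearson's r across 12280 genes was 0.49 (rho 0.48). HIF targets and glycolysis had medians of 1.83 and 1.61 in BV2, against 2.09 and 1.45 in BMDM, and the unfolded protein response one of 0.92. Medians of opposite sign in BMDM and BV2 included chemokines and receptors (-1.17 and 0.24), cholesterol genes (-1.38 and 0.02) and NRF2 antioxidant genes (0.98 and -0.46). Of the unfolded protein response genes, Pdia4 and Creld2 differed in their response past the threshold. Pdia4 was at 263 and 184 CPM in normoxic and 479.6 and 336 CPM in hypoxic BV2 (difference in log2 fold change 3.25, SE 0.59, adjusted p = 0.0487). Stc2, which went from 1.75 and 0.441 CPM to 57.9 and 53.8 CPM in BMDM, was at 68.5 and 39.6 CPM in normoxic and 41.7 and 53.3 CPM in hypoxic BV2 (5.82, SE 0.84, adjusted p = 0.0256). Apln was at 2.68 and 2.58 CPM in normoxic and 2.04 and 1.64 CPM in hypoxic BV2 (5.44, SE 0.63, adjusted p = 0.0256). Cd86 moved in opposite directions, down in BV2 from 39.8 and 30.8 CPM to 11.8 and 15.6 CPM (4.19, SE 0.60, adjusted p = 0.0256). The 22 stromal markers summed to 128 and 126 CPM in normoxic and 285 and 279 CPM in hypoxic BV2, far below the BMDM sums. Serum and stromal transcripts differed between the cell types, and their part in these differences cannot be told apart from that of the cells.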

How the data were processed

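The authors deposited whole-number read counts per Ensembl gene. The submitters' processing notes name mm10, Trimmomatic 0.36, STAR 2.6, SAMtools, HTSeq 0.9.1 and deepTools without role or order, and use of strand in counting is not given in the sources used here. Libraries were poly(A)-selected and stranded, per the labels' protocols.

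From these counts, edgeR 4.0.16 (R 4.3.3, limma 3.58.1) was run as a quasi-likelihood test on the 6 BMDM libraries of the panobinostat experiment, with TMM scaling, filterByExpr (minimum count 10, total 15), Benjamini-Hochberg adjustment over all genes and a threshold of 0.05. The same fit with the replicate number as a block is printed beside it. CPM are TMM-scaled; marker sums are plain CPM. Differences from BV2 and from untreated BMDM are interaction terms. Alternatives were DESeq2 1.42.0, its size factors, other filters, left-out libraries and removal of other-cell markers. The test was also run on simulated counts. These held no replicate effect and no difference in cell makeup, so they cannot show which fit is right here.

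Named genes were, among called genes averaging 4 or more log2 CPM without overlap between groups, the 10 largest rises and falls of each fit, for each list the 3 most abundant and 3 most changed members, and for each interaction the 3 largest terms either way; other named genes were chosen after their values were seen. Members and lists were chosen with earlier results of these data known. Coordinates are GENCODE M21 (mm10); promoters are RefSeq (GRCm38.p6). Shared stretches are 75-base exon sequences also present in another gene, where counts are uncertain.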

Additional observations from a re-analysis of the deposited data

Results flagged for a closer look

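The response to hypoxia differed between DMSO-treated BMDM and DMSO-treated BV2 for 106 genes by edgeR's interaction term, and 10 of them are named by the fixed rules. Esam had the largest term, 11.69 (SE 1.65, adjusted p = 0.0256); it had 3 and 1 counts in normoxic and 0 in hypoxic BV2, so the fitted size depends on the prior count and is no measured fold. The term was 5.82 for Stc2 (adjusted p = 0.0256), 5.44 for Apln (adjusted p = 0.0256) and 5.02 for Gls2 (adjusted p = 0.0467), each higher in hypoxic BMDM. For Gls2, a glutaminase, BV2 held 4.02 and 5.5 CPM in normoxia and 3.46 and 7.99 CPM in hypoxia. The term was 4.19 for Cd86 (adjusted p = 0.0256) and 3.25 for Pdia4 (adjusted p = 0.0487).

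The 4 negative terms among the 10 belonged to genes whose levels were higher in hypoxic than in normoxic BV2. Hdac7, a class IIa histone deacetylase, was at 2.09 and 0.835 CPM in normoxic and 24.4 and 18.3 CPM in hypoxic BV2, and at 83.8 and 91.9 CPM in normoxic and 66.1 and 127 CPM in hypoxic BMDM (term -3.81, SE 0.58, adjusted p = 0.0256). Zfp651, a zinc finger gene, was at 2.09 and 0.975 CPM in normoxic and 35.1 and 17.6 CPM in hypoxic BV2 and at 24.5 and 24.6 CPM in normoxic and 11.4 and 20.9 CPM in hypoxic BMDM (term -4.78, adjusted p = 0.0256). Ptpn14, a phosphatase, was at 3.35 and 1.88 CPM in normoxic and 45.5 and 31.5 CPM in hypoxic BV2 and at 71.5 and 103 CPM in normoxic and 25.2 and 62.6 CPM in hypoxic BMDM (term -4.95, adjusted p = 0.0256). Unc13d, needed for granule release, had 0 and 1 counts in normoxic and 8 and 13 in hypoxic BV2, too few to be tested there alone (term -4.65, adjusted p = 0.031).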

How the results depend on the processing

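The count of 72 genes (70 higher, 2 lower) became 2078 with DESeq2 (1173, 905), 3259 without a filter (1487, 1772), 2127 with the replicate block (1172, 955), 320 on the 4 DMSO libraries with the block (213, 107), 0 on those 4 without it (0, 0), 3483 with DESeq2 and the block (1563, 1920) and 2172 without other-cell markers and with the block (1191, 981). With DESeq2 size factors it was 61 (60, 1), with genes under a mean CPM of 5 removed 77, and without other-cell markers 76. Leaving out 1 library gave 0 to 3280 genes, with 0 to 1406 higher and 0 to 1874 lower; the fits with the block among these were added after seeing the data. All 72 genes kept their sign wherever they were tested.

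The 106 differences from BV2 (33 higher, 73 lower) became 1103 with DESeq2 (498, 605), 1372 without a filter (483, 889), 247 with genes under a mean CPM of 5 removed (105, 142) and 1298 with the replicate block (563, 735), and 0 to 1203 without 1 library (0 to 498, 0 to 705). The 0 differences from untreated BMDM became 88 with DESeq2 (54, 34), 729 without a filter (167, 562) and 0 to 20 without 1 library (0 to 1, 0 to 19), and stayed 0 with the block. The cause was not tested.

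Labels do not say that replicate numbers pair samples. As a hint from the data, same-numbered libraries deviated together (correlation 0.41, 0.34 and 0.59 between the 3 group pairs).

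Log2 fold changes that changed sign when 1 library was left out ranged as follows: Pygl -0.94 to 0.99 (also -0.0049 with the block, -0.029 with DESeq2 and the block, -0.0068 without markers and with the block), Lox -0.34 to 0.71, Hdac5 -0.060 to 0.17, Hdac7 -0.49 to 0.53, Cd14 -1.26 to 0.64, H2-D1 -0.40 to 0.60, Cd74 -0.19 to 0.81 and H2-DMb2 -7.38 to 0.080. Among inflammatory and macrophage genes they were Cxcl2 -0.92 to 6.27, Cxcl3 -4.32 to 6.22, Ccl3 -0.41 to 5.06, Csf2 -3.61 to 6.29, Il6 -4.24 to 7.65, Arg1 -3.11 to 6.56 (1.61 on the 4 libraries with the block), Csf1r -1.63 to 0.058, Spp1 -0.20 to 0.94, Abca1 -2.96 to 0.42, Fth1 -0.29 to 1.51, Lcn2 -2.77 to 6.96, Junb -2.01e-05 to 1.45 and Sirpa -0.18 to 0.46. The others were Pcna -0.88 to 0.57, Brca1 -3.21 to 0.092, Mcl1 -0.56 to 0.39 and Bcl2a1a -0.057 to 4.65. Values under 0.189 to 0.311 CPM rest on fewer than 3 counts, and differences among such values were not detectable at this depth.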

Other observations

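Transcripts of the clustered histone genes (symbols starting with Hist), many of which normally lack a poly(A) tail, took 0.0160% and 0.0138% of counts in normoxic DMSO-treated BMDM and 0.148% and 0.0447% in hypoxic ones, in poly(A)-selected libraries. In untreated BMDM the shares were 0.0248% and 0.0238% in normoxia and 0.0925% and 0.0793% in hypoxia. In both experiments the hypoxic libraries did not overlap the normoxic ones. Chosen after their values were seen, 3 histone genes were among the 72: Hist1h2bj (0.512 and 0.315 CPM to 11.5 and 5.87 CPM), Hist1h3d (0.512 and 0.882 CPM to 22.7 and 11.5 CPM) and Hist1h4m (0.146 and 0.189 CPM to 7.43 and 4.43 CPM), with adjusted p of 0.0488, 0.0474 and 0.0426 by edgeR. Their counts are uncertain, since histone genes share much of their sequence.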
